A study of Homo sapiens with 12 samples.

Results

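The aminoacyl-tRNA synthetases described here are 36 genes of 39368 listed symbols, which match the family's naming pattern (a letter for the amino acid, then ARS and at most a digit from 1 to 3), together with EPRS1, FARSA and FARSB. Of these, 20 encode cytosolic enzymes and 16, with symbols ending in 2, encode mitochondrial enzymes. The list was built around WARS1, whose fall with doxycycline (DOX) was already known from these libraries, so the values of WARS1 are described here without a test. The other 35 members were chosen by name. They were measured in CAL27 and HSC3 cells, which are established HPV-negative head and neck squamous cell carcinoma (HNSCC) lines. All libraries come from cells that carry tet-MUC1shRNA, an shRNA against MUC1 that is expressed when DOX is added. The 4 groups are CAL27/tet-MUC1shRNA with vehicle (0.1% DMSO), CAL27/tet-MUC1shRNA with 500 ng/mL DOX, HSC3/tet-MUC1shRNA with vehicle and HSC3/tet-MUC1shRNA with 500 ng/mL DOX, each treated for 7 days and each with 3 libraries. A single shRNA was used in these libraries, and DOX-treated cells with the control shRNA were not analysed here. Silencing of MUC1 thus cannot be told apart here from anything else that DOX or the shRNA does. In other assays the study also used another MUC1 shRNA, DOX-treated control-shRNA cells and rescue with the MUC1-C cytoplasmic domain. It reported lower WARS (WARS1) mRNA and protein in CAL27 cells after MUC1-C silencing.

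Each synthetase joins an amino acid to its tRNA, and the charged tRNA is then used by the ribosome. Cytosol and mitochondria mostly have separate enzymes, all encoded in the nucleus, although GARS1 and KARS1 serve both compartments. The synthetases fall into 2 classes by the fold of the catalytic domain. In the cytosol, a set of them is held in the multi-synthetase complex by the scaffold proteins AIMP1, AIMP2 and EEF1E1. Many cytosolic synthetase genes are activated by ATF4, the transcription factor of the integrated stress response. WARS1, the cytosolic tryptophanyl-tRNA synthetase, is unusual in the family because its transcription is induced by interferon-γ. It uses the same amino acid that IDO1, another interferon-induced enzyme, breaks down.

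Promoter windows of 300 bases (250 before and 50 after an annotated start, RefSeq, GRCh38.p14) were found for 30 of the 36 members, 39 windows in all. WARS1 has 2, both on the minus strand of chromosome 14. The upstream window, chr14:100376278-100376577, holds none of the motifs searched. The window of the downstream start, chr14:100375298-100375597, lies within the gene and is shown because it holds the letters of 2 interferon-related motifs. In capitals are TTCTGAGAA, a match to TTCNNNGAA (the GAS, an interferon-γ activation site), whose first base is 142 bases before the start, and GAAACTGAA, a match to GAAANNGAA (the core of the ISRE, to which IRFs bind), whose first base is 55 bases before it.
WARS1 downstream start: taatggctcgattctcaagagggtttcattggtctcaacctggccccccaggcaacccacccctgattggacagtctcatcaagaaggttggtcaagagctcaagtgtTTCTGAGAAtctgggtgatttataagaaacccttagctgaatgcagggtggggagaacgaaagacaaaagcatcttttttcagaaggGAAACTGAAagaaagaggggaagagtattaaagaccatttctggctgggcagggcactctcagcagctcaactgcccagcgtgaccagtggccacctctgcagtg
Both strands were searched. Of all 35116 promoter windows, 8.11% hold the ISRE core and 7.66% the GAS. Among the members, the ISRE core is in 5 windows of 4 genes (EARS2, GARS1, IARS1 and WARS1), and the GAS is in 7 windows of 5 genes. A match is a description of the letters and not of a binding site.

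The ATF4 response element, TGATGNAA on either strand, was searched for in the same windows and is in 8 windows of 8 members, 20.5% of the member windows, against 3.62% of all windows. In 5 of the 8, the letters are the same TTGCATCA, and NARS1 has its reverse complement. The stretches of 30 bases around the match (capitals) are shown because these genes are compared with WARS1 below.
AARS1 (chr16:70289675-70289704, minus strand): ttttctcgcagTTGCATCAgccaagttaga
CARS1 (chr11:3057407-3057436, minus strand): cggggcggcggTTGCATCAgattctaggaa
GARS1 (chr7:30594834-30594863, plus strand): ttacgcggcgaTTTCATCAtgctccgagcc
IARS1 (chr9:92293692-92293721, minus strand): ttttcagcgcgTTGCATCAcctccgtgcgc
MARS1 (chr12:57488053-57488082, plus strand): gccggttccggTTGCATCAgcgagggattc
NARS1 (chr18:57621804-57621833, minus strand): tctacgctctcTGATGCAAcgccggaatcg
TARS1 (chr5:33440956-33440985, plus strand): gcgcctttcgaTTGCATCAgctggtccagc
YARS2 (chr12:32756076-32756105, minus strand): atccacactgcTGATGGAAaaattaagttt
Neither WARS1 window holds this element. IARS1 is the member whose window holds both an ISRE core and an ATF4 element.

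Total counts were 92866845 to 126328662 in CAL27 and 89730914 to 169065103 in HSC3 libraries, and 19128 to 24685 genes had a count. Levels are in CPM, the count scaled to the size of its library after TMM normalization within a line. The counts of MUC1 in CAL27 cells were 8062, 5753 and 6589 in the vehicle libraries against 306, 285 and 419 in the DOX libraries, and those in HSC3 cells were 191, 162 and 196 against 46, 36 and 16 (log2 fold changes -4.21 and -2.88, edgeR adjusted p = 1.6e-19 and 2e-04). HSC3 DOX replicate 1 stood apart from the other DOX replicates of its line, with a chi-square per degree of freedom of 132 and 85.4 against 22 between the other 2. The HSC3 counts of a list and the HSC3 calls of single genes that changed without it are given both ways below. Squamous markers were summed over KRT5, KRT14, KRT6A, KRT17, TP63, DSG3, SFN, CDH1 and EPCAM. They were at 7237 to 7435 CPM with vehicle and 3506 to 3731 with DOX in CAL27 cells, and at 5890 to 6553 and 2780 to 3347 in HSC3 cells, with 6 of the 9 lower and EPCAM higher in each line (7 lower in HSC3 cells without DOX replicate 1). Blood cell markers (PTPRC, CD3E and CD68) summed to 0.379 to 0.459 CPM with vehicle and 0.334 to 0.573 with DOX in CAL27 cells, and to 0.268 to 0.435 and 0.0667 to 0.323 in HSC3 cells. Fibroblast markers (COL1A1, COL1A2, PDGFRB and DCN) went from 12.05 to 13.5 CPM with vehicle to 10.5 to 11.2 with DOX in CAL27 cells and from 3.84 to 4.53 to 5.37 to 8.31 in HSC3 cells. Endothelial markers (PECAM1, CDH5 and VWF) went from 16.5 to 16.7 CPM to 9.76 to 13.3 in CAL27 cells, nearly all of it CDH5, and stayed at or under 0.475 in HSC3 cells. In HSC3 cells CD3E, COL1A2 and DCN had no count in any library. The part of the shifts in these markers in the results below was not tested. In such bulk libraries, fewer cells that express a gene and less RNA per cell cannot be told apart.

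WARS1 spans chr14:100333790-100376805 in GRCh38 by GENCODE v44, on the minus strand, and was the member described here with the lowest log2 fold change in both lines. In CAL27 cells its level was 261, 256 and 248 CPM in the vehicle libraries and 74.5, 70.3 and 66.8 CPM in the DOX libraries. In HSC3 cells it was 484, 454 and 478 CPM with vehicle and 98.8, 100.2 and 100.4 CPM with DOX. The groups were far apart in each line, and replicates differed little within a group. With DOX the level was 0.277 times that of vehicle in CAL27 cells (log2 fold change -1.85, standard error 0.0439) and 0.211 times in HSC3 cells (-2.24, standard error 0.058). Of the 19239 genes tested in CAL27 cells 271 had a lower log2 fold change than WARS1, and of the 18021 tested in HSC3 cells 276 did. Over all alternatives tried the log2 fold change stayed between -1.90 and -1.81 in CAL27 and between -2.27 and -2.22 in HSC3 cells.

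Before DOX, WARS1 was among the most abundant synthetase transcripts. Per kilobase of the canonical transcript, it was the 5th of the 36 members in CAL27 cells with vehicle, at 96.6 ± 2.62 CPM per kb (SD, n = 3), below GARS1 (206), TARS1 (139), KARS1 (130) and IARS1 (116), and next to AARS1 at 92.9 ± 3.53. In HSC3 cells with vehicle it was the 3rd, at 178.9 ± 6.01 CPM per kb, below TARS1 (268) and GARS1 (247) and level with IARS1 at 176 ± 6.34, from which it did not differ beyond the spread between replicates. With DOX it was 20th in CAL27 cells, at 26.7 ± 1.47 CPM per kb, and 15th in HSC3 cells, at 37.8 ± 0.327. As a share of the counts on all 36 synthetases, WARS1 went from 5.37% to 5.63% with vehicle to 1.54% to 1.61% with DOX in CAL27 cells, and from 7.69% to 8.31% to 1.71% to 1.73% in HSC3 cells. In the annotation 10.6% of its exon bases lie under genes of the opposite strand, and how the counting used strand is not given in the sources used here.

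**Figure D1:**
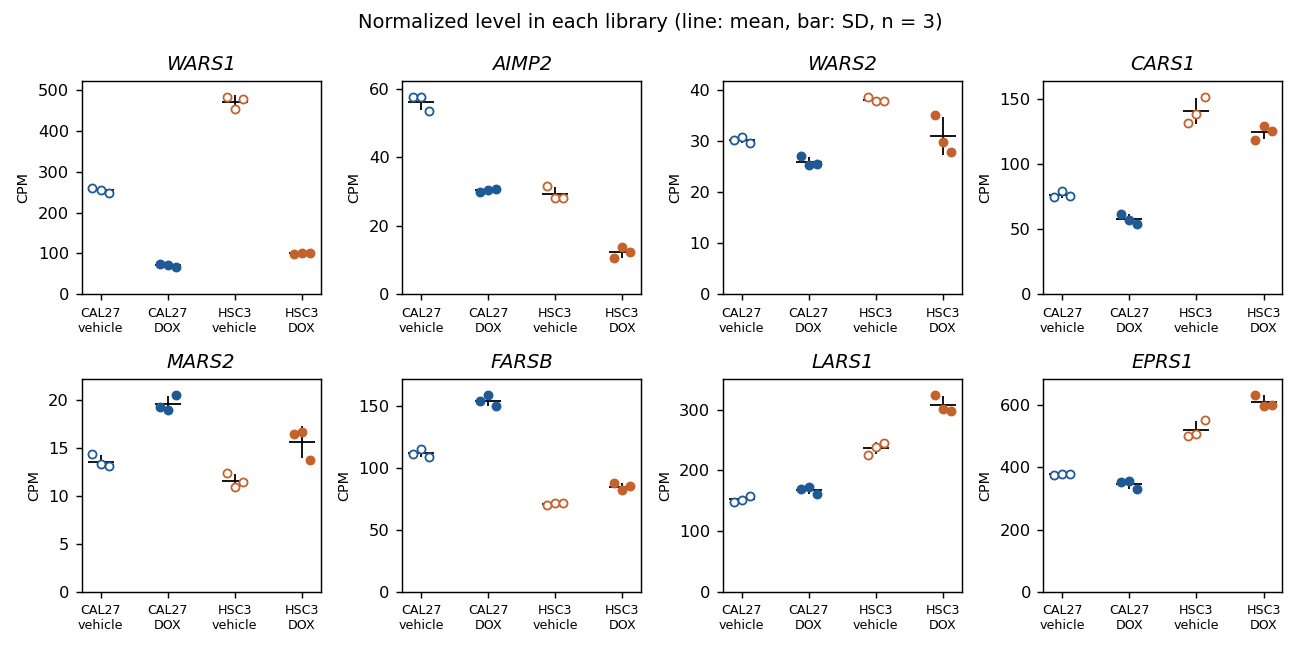
Normalized level (CPM, vertical axes from 0) of WARS1, AIMP2, WARS2, CARS1, MARS2, FARSB, LARS1 and EPRS1 in each of the 12 libraries, open points for vehicle and filled points for DOX, with the mean as a line and the SD as a bar (n = 3). The DOX points of WARS1 and AIMP2 lie below all vehicle points in both lines, while EPRS1 is lower with DOX in CAL27 and higher in HSC3 cells.

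WARS2, the mitochondrial tryptophanyl-tRNA synthetase, was measured at a lower level and changed by less. It had 30.2, 30.7 and 29.7 CPM with vehicle and 27.1, 25.3 and 25.4 CPM with DOX in CAL27 cells, and 38.67, 37.8 and 37.9 CPM with vehicle and 35.1, 29.8 and 27.9 CPM with DOX in HSC3 cells. All DOX libraries were below all vehicle libraries in each line. The log2 fold change of WARS2 was -0.22 in CAL27 cells (standard error 0.0515, edgeR adjusted p = 0.0015) and -0.30 in HSC3 cells (standard error 0.0942, edgeR adjusted p = 0.035). The HSC3 call was lost when any of vehicle replicates 1, 2 and 3 or DOX replicates 2 and 3 was left out, with an edgeR adjusted p of up to 0.14. The CAL27 call of WARS2 was lost when 1 fit of all 12 libraries took the place of a fit per line (-0.22, edgeR adjusted p = 0.061). The difference of WARS2 between the lines was -0.08 on the log2 scale (edgeR adjusted p = 0.71).

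Whether the fall of WARS1 was shared was read from the 34 other members described here that passed the filter on low counts in each line. VARS2 did not pass. In CAL27 cells 6 of the 34 fell, 14 rose and 14 did not pass the test (edgeR quasi-likelihood, p adjusted across every gene tested by Benjamini-Hochberg, threshold 0.05). Of all genes tested in CAL27 cells 21.8% were lower and 22.6% higher at that threshold, 44.5% in all, against 58.8% of the 34. Their median log2 fold change was 0.08, beside -0.01 over all genes. None of the 34 changed by over 2-fold in CAL27 cells, where 5.11% of all genes were called lower and 1.31% higher at that fold.

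In HSC3 cells 3 of the 34 fell, 7 rose and 24 did not pass the test. Of all genes tested in HSC3 cells 15.4% were lower and 13% higher, 28.4% in all, against 29.4% of the 34. Their median log2 fold change was 0.08, beside -0.01 over all genes. None of the 34 changed by over 2-fold, where 4.4% of all genes were called lower and 1.58% higher at that fold. The HSC3 counts rested on single libraries. Without DOX replicate 1, 3 fell and 12 rose, 44.1% of the 34 beside 36.7% of all genes then tested. The members that gained a call were FARSA (log2 fold change 0.49), HARS2 (0.44), PARS2 (0.44), TARS2 (0.22) and HARS1 (0.19), with edgeR adjusted p of 2.7e-04, 0.0068, 0.02, 0.026 and 0.04. Without vehicle replicate 2, 1 fell and 4 rose, and without vehicle replicate 1, vehicle replicate 3 or DOX replicate 3, 1 fell.

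**Figure D2:**
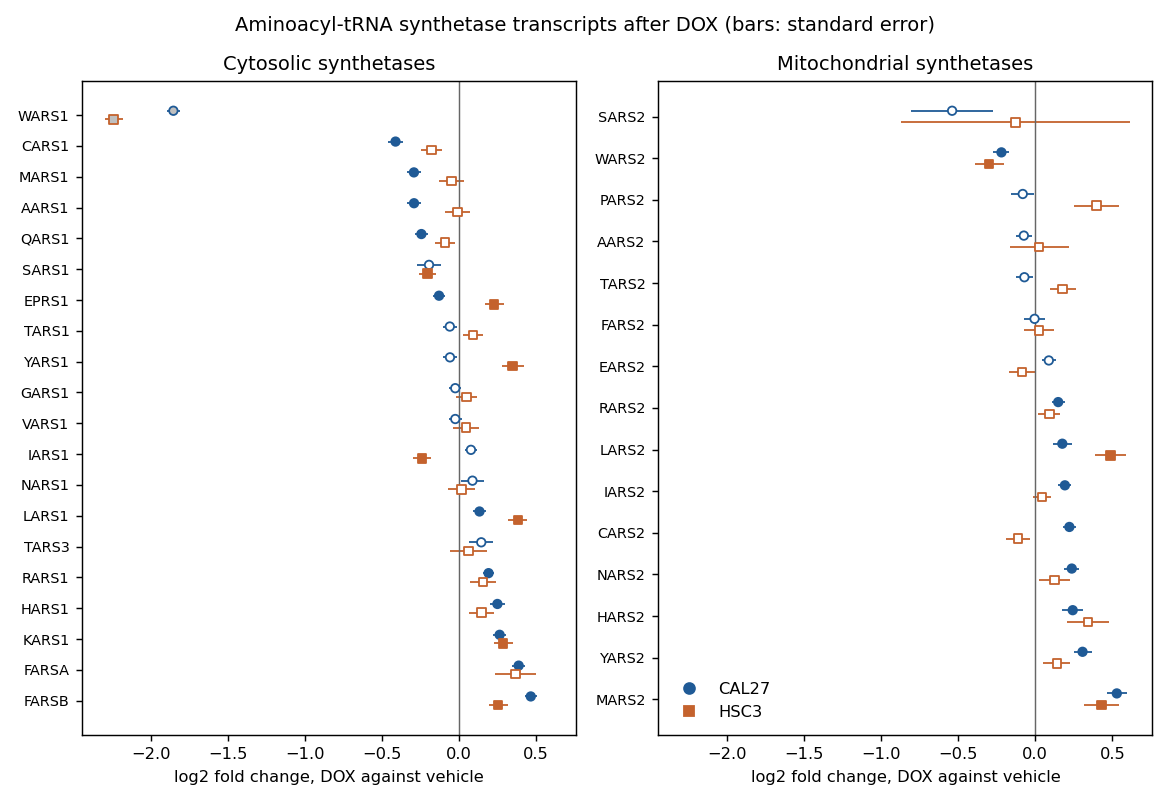
Log2 fold change of DOX against vehicle (horizontal axes) for the 35 members tested, cytosolic on the left and mitochondrial on the right, circles for CAL27 and squares for HSC3, with standard errors as bars. Filled symbols passed the test, open symbols did not, and WARS1, whose test is not reported, is filled in grey. Apart from WARS1, the members lie between -0.54 and 0.53.

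AIMP2, a scaffold protein of the multi-synthetase complex, is no member of the family and fell in both lines. In the annotation 29.1% of the exon bases of AIMP2 lie under genes of the opposite strand. AIMP2 had 57.6, 57.5 and 53.5 CPM with vehicle and 29.8, 30.4 and 30.6 CPM with DOX in CAL27 cells, and 31.6, 27.98 and 28.2 CPM against 10.7, 13.9 and 12.2 CPM in HSC3 cells. The groups did not overlap. The log2 fold change of AIMP2 was -0.89 in CAL27 cells (standard error 0.0468, edgeR adjusted p = 5.6e-12) and -1.26 in HSC3 cells (standard error 0.113, edgeR adjusted p = 1.4e-05). Neither of the other scaffolds fell. AIMP1 had log2 fold changes of 0.06 and 0.14 (edgeR adjusted p = 0.27 and 0.19), and EEF1E1 rose by 0.25 in CAL27 cells (edgeR adjusted p = 0.0034) and had 0.23 in HSC3 cells (edgeR adjusted p = 0.22).

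**Figure D3:**
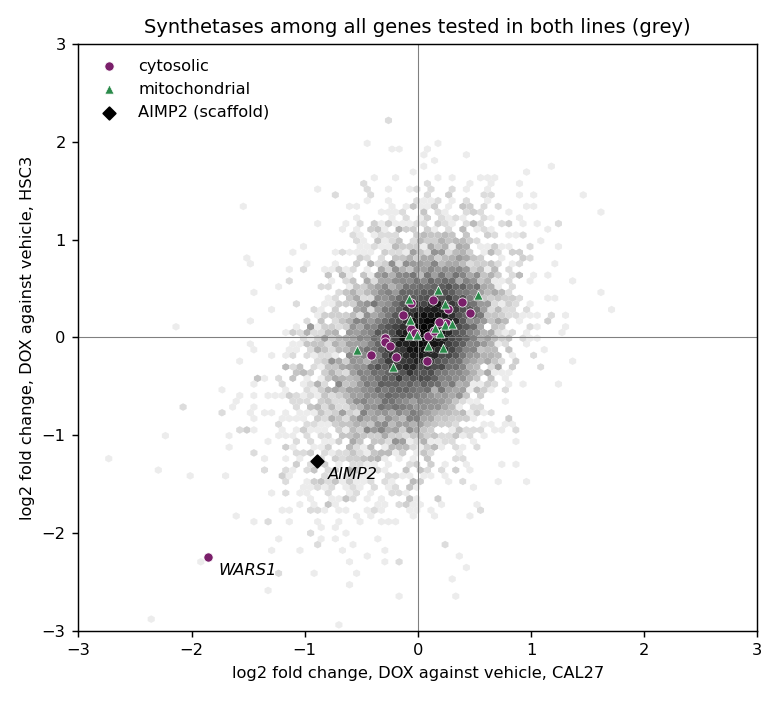
Log2 fold change of DOX against vehicle in CAL27 (horizontal axis) and HSC3 cells (vertical axis) for the 17164 genes tested in both lines, drawn as grey hexagons (darker for more genes, log scale, 17012 genes within the axis limits of 3), with cytosolic synthetases as circles, mitochondrial ones as triangles and AIMP2 as a diamond. WARS1 at -1.85 and -2.24 lies away from the other synthetases, and so does AIMP2 at -0.89 and -1.26.

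Among 7 synthetases of the multi-synthetase complex (EPRS1, LARS1, IARS1, MARS1, QARS1, RARS1 and KARS1), 3 fell and 3 rose in CAL27 cells, and 1 fell and 3 rose in HSC3 cells. Their median log2 fold changes were 0.08 and 0.15. Called were 85.7% of the 7 in CAL27 and 57.1% in HSC3 cells, beside 44.5% and 28.4% of all genes. The subunits of the complex thus went in both directions. KARS1, the lysyl enzyme, rose from 259, 260.2 and 259 CPM to 323, 321 and 289.8 CPM in CAL27 cells (log2 fold change 0.26, edgeR adjusted p = 3.3e-05) and from 151, 159 and 153 CPM to 179.6, 198 and 186 CPM in HSC3 cells (0.29, edgeR adjusted p = 0.0047). LARS1, the leucyl enzyme and a sensor of leucine for mTORC1, rose by 0.13 in CAL27 cells (edgeR adjusted p = 0.01) and by 0.38 in HSC3 cells (edgeR adjusted p = 9.2e-04). Its CAL27 levels were 149, 152 and 158 CPM with vehicle and 169.2, 173 and 161 with DOX, and its HSC3 levels were 225, 239 and 245 CPM with vehicle and 325, 301 and 297 with DOX. The CAL27 call of LARS1 was lost without vehicle replicate 1, vehicle replicate 2 or DOX library 5, and in 1 fit of all 12 libraries (edgeR adjusted p = 0.086).

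EPRS1, the glutamyl-prolyl enzyme, was the member called in opposite directions in the 2 lines. It had 376, 380.5 and 380.6 CPM with vehicle and 354, 356 and 329 CPM with DOX in CAL27 cells (log2 fold change -0.13, standard error 0.0392, edgeR adjusted p = 0.01). Its HSC3 levels were 502, 509 and 554 CPM with vehicle and 635, 597 and 601 CPM with DOX (0.23, standard error 0.0613, edgeR adjusted p = 0.017). The groups did not overlap in either line. The difference of EPRS1 between the lines was 0.36 on the log2 scale (edgeR adjusted p = 0.0024). The HSC3 call of EPRS1 was lost without vehicle replicate 1, vehicle replicate 2 or DOX replicate 3, with an edgeR adjusted p of up to 0.091. Its CAL27 call was lost in 1 fit of all 12 libraries (-0.13, edgeR adjusted p = 0.094), so the opposite calls rest on fitting each line alone.

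The 19 cytosolic synthetases other than WARS1 were split in CAL27 cells, where 5 fell, 6 rose and 8 did not pass the test, with a median log2 fold change of -0.02. In HSC3 cells 2 fell, 5 rose and 12 did not pass, with a median of 0.06 (2 fell and 7 rose without DOX replicate 1). Called were 57.9% of the 19 in CAL27 and 36.8% in HSC3 cells, beside 44.5% and 28.4% of all genes. The largest fall in CAL27 cells was in CARS1, the cysteinyl enzyme, from 74.5, 79.2 and 75.7 CPM to 61.6, 57.2 and 53.7 CPM (log2 fold change -0.41, standard error 0.0485, edgeR adjusted p = 6.8e-07). MARS1, the methionyl enzyme, fell by 0.29 on the log2 scale, from 206, 209 and 195 CPM to 173, 172 and 154 CPM (edgeR adjusted p = 2.6e-05), and 5.05% of its exon bases lie opposite DDIT3. AARS1, the alanyl enzyme, also fell by 0.29, from 311, 333 and 314 CPM to 272, 269 and 241 CPM (edgeR adjusted p = 3.4e-05), and QARS1, the glutaminyl enzyme, fell by 0.24, from 117, 125 and 118 CPM to 105, 101 and 97.7 CPM (edgeR adjusted p = 5.4e-05). None of these 4 was called in HSC3 cells, where CARS1 had -0.18, MARS1 -0.05, AARS1 -0.01 and QARS1 -0.09 (edgeR adjusted p = 0.081, 0.71, 0.95 and 0.36). CARS1 passed there in 1 fit of all 12 libraries (-0.17, edgeR adjusted p = 0.044). The difference between the lines was not called by edgeR with TMM for any of the 4 with all libraries (edgeR adjusted p of 0.057 to 0.17). With DESeq2 size factors in place of TMM, edgeR called it for AARS1 (0.30, edgeR adjusted p = 0.043). DESeq2 called it for AARS1 and CARS1 (0.30 and 0.25, DESeq2 adjusted p = 0.024 and 0.045), each called under 4 of the 16 alternatives. Without HSC3 DOX replicate 1 it was called for each of them, at 0.39 for AARS1, 0.35 for MARS1, 0.28 for CARS1 and 0.22 for QARS1 (edgeR adjusted p = 1.6e-04, 5.2e-04, 0.014 and 0.0073).

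Both subunits of the cytosolic phenylalanyl enzyme rose in CAL27 cells. FARSB went from 111, 115 and 109 CPM to 154, 159 and 149.8 CPM (log2 fold change 0.47, standard error 0.0397, edgeR adjusted p = 7.8e-09) and FARSA from 59.0, 59.5 and 56.8 CPM to 76.8, 78.2 and 74.3 CPM (0.39, standard error 0.0414, edgeR adjusted p = 1.8e-07). FARSB also rose in HSC3 cells, from 70.3, 71.7 and 71.7 CPM to 87.5, 81.8 and 85.5 CPM (0.25, standard error 0.0624, edgeR adjusted p = 0.011), a call lost without vehicle replicate 1 or 2. FARSA had 22.4, 22.5 and 19.997 CPM with vehicle and 22.8, 33.6 and 27.3 CPM with DOX in HSC3 cells (0.37, edgeR adjusted p = 0.059), with DOX replicate 1 close to the vehicle libraries. The HSC3 rise of FARSA was called under 5 of the 12 alternatives, among them the fit without that library, given above, and 1 fit of all 12 libraries (0.37, edgeR adjusted p = 0.01). HARS1 and RARS1, the histidyl and arginyl enzymes, rose in CAL27 cells by 0.25 and 0.19, and the call of RARS1 was lost in 1 fit of all 12 libraries (edgeR adjusted p = 0.068).

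In HSC3 cells the cytosolic members that fell were IARS1 and SARS1. IARS1, the isoleucyl enzyme, had 782, 766 and 821 CPM with vehicle and 683, 651 and 671 CPM with DOX (log2 fold change -0.24, standard error 0.0564, edgeR adjusted p = 0.0082). SARS1, the seryl enzyme, had 253, 259 and 259 CPM with vehicle and 214, 231 and 225 CPM with DOX (-0.20, edgeR adjusted p = 0.02), and its call was lost without vehicle replicate 1, 2 or 3 or DOX replicate 3. The change of SARS1 was of similar size in CAL27 cells (-0.19, edgeR adjusted p = 0.076). It was called there under 4 of the 11 alternatives, among them DESeq2 (DESeq2 adjusted p = 0.014). The difference of SARS1 between the lines was -0.01 (edgeR adjusted p = 0.99). YARS1, the tyrosyl enzyme, rose in HSC3 cells from 259, 273 and 273 CPM to 308, 368 and 349.9 CPM (0.35, standard error 0.0714, edgeR adjusted p = 0.0038). GARS1, TARS1, VARS1, NARS1 and TARS3 were called in neither line, with log2 fold changes between -0.06 and 0.14, although NARS1 was called in CAL27 cells without DOX library 6 (0.17, edgeR adjusted p = 7.4e-04).

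The 15 mitochondrial synthetases tested leaned to higher values in CAL27 cells, where 8 rose, 1 fell and 6 did not pass the test, with a median log2 fold change of 0.15. In HSC3 cells 2 rose, 1 fell and 12 did not pass, with a median of 0.09 (5 rose and 1 fell without DOX replicate 1). Called were 60% of the 15 in CAL27 and 20% in HSC3 cells, beside 44.5% and 28.4% of all genes. MARS2, the mitochondrial methionyl enzyme, had the largest rise of all members in CAL27 cells, from 14.4, 13.3 and 13.1 CPM to 19.3, 18.9 and 20.6 CPM (log2 fold change 0.53, standard error 0.064, edgeR adjusted p = 9.5e-07). The rise in HSC3 cells was from 12.4, 10.9 and 11.49 CPM to 16.5, 16.7 and 13.7 CPM (0.43, standard error 0.113, edgeR adjusted p = 0.015), a call lost without vehicle replicate 2 or 3. LARS2, the mitochondrial leucyl enzyme, rose by 0.18 in CAL27 cells (edgeR adjusted p = 0.027) and by 0.49 in HSC3 cells (standard error 0.101, edgeR adjusted p = 0.004), where it had 16.7, 18.1 and 15.1 CPM with vehicle and 21.8, 25.0 and 23.2 CPM with DOX. The CAL27 call of LARS2 was lost without vehicle replicate 1, vehicle replicate 2 or DOX library 5, and in 1 fit of all 12 libraries (edgeR adjusted p = 0.15).

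The other mitochondrial members that rose in CAL27 cells were YARS2 (log2 fold change 0.31, edgeR adjusted p = 2e-04), HARS2 (0.24), NARS2 (0.24), CARS2 (0.22), IARS2 (0.19) and RARS2 (0.15). YARS2 went from 15.9, 16.0 and 15.8 CPM to 19.1, 20.2 and 19.7 CPM, and 18.1% of its exon bases lie under a gene of the opposite strand. These members had log2 fold changes between -0.11 and 0.34 in HSC3 cells, none of them called with all libraries. HARS2 was the one at 0.34 (edgeR adjusted p = 0.091), called without DOX replicate 1, as given above, and in 1 fit of all 12 libraries (0.35, edgeR adjusted p = 0.03), where its CAL27 call was lost (0.25, edgeR adjusted p = 0.15).

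The counts of 2 mitochondrial members limit what can be said of them. VARS2 had 0 to 10 counts in CAL27 and 0 or 1 in HSC3 libraries, and 63.0% of its exon bases lie under another gene on the same strand, so its reads could have been split. In CAL27 cells SARS2 had 77, 64 and 61 counts in the vehicle libraries against 42, 34 and 52 in the DOX libraries (log2 fold change -0.54, standard error 0.265, edgeR adjusted p = 0.11). The HSC3 libraries had 59, 33 and 46 counts against 100, 63 and 6, and no difference was detectable at this depth. For SARS2 48.2% of the exon bases lie under another gene on the same strand. PARS2, the mitochondrial prolyl enzyme, was at 4.94 to 9.42 CPM and called in neither line with all libraries. Its HSC3 log2 fold change of 0.40 (edgeR adjusted p = 0.063) was called under 4 of the 12 alternatives, among them the fit without DOX replicate 1, given above, and 1 fit of all 12 libraries (edgeR adjusted p = 0.012).

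Between the lines, 1 of the 34 members fell in both (WARS2) and 5 rose in both (LARS1, KARS1, FARSB, MARS2 and LARS2). In 1 fit of all 12 libraries the CAL27 calls of WARS2, LARS1 and LARS2 were lost. SARS1, called lower in HSC3 cells, was called lower in CAL27 cells too with DESeq2, as given above. Of the 17164 genes tested in both lines 8.62% were lower in both, 7.82% higher in both, 1.19% lower in CAL27 and higher in HSC3 cells, as EPRS1 was, and 2.37% the reverse, as no member was. The difference itself was tested by the interaction of line and DOX in a fit of all 12 libraries. It was called lower in HSC3 for 3 and higher for 4 of the 34 members. Over all 20694 genes of that fit, 12.3% were called lower and 8.25% higher, 20.6% in all, the same share as among the 34 members. Without HSC3 DOX replicate 1 the interaction was called for 13 of the 35 members then tested, 10 of them higher in HSC3. These are 37.1% of the members (28.6% higher), beside 27.4% of all genes then tested (12.3% higher). Without CAL27 vehicle replicate 3 or CAL27 DOX library 6 the interaction was called for 4, 2 of them higher. The estimate for WARS1 was -0.39, given as a description.

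Of the 7 members with a called difference between the lines, 3 were called in a single line (IARS1, CARS2 and YARS1). IARS1 had 525, 524 and 508 CPM with vehicle and 558, 552 and 532 CPM with DOX in CAL27 cells, where it was called without DOX library 6 alone (0.10, edgeR adjusted p = 0.015), and was lower with DOX in HSC3 cells as given above (difference -0.32, edgeR adjusted p = 0.0025). CARS2, the mitochondrial cysteinyl enzyme, rose in CAL27 cells from 44.3, 46.8 and 43.97 CPM to 52.7, 51.9 and 52.9 CPM and had 50.5, 56.3 and 52.1 CPM against 46.0, 51.3 and 49.7 CPM in HSC3 cells (difference -0.33, edgeR adjusted p = 0.01). YARS1 had a log2 fold change of -0.06 in CAL27 cells, beside its rise in HSC3 cells (difference 0.41, edgeR adjusted p = 0.0036). For LARS1 the difference was 0.25 (edgeR adjusted p = 0.03). The calls of FARSB (-0.21, edgeR adjusted p = 0.044) and PARS2 (0.48, edgeR adjusted p = 0.045) were close to the threshold.

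By class, 5 of the 17 class I members tested other than WARS1 fell and 8 rose in CAL27 cells, against 1 and 6 of the 17 class II members. In HSC3 cells 2 and 5 of the class I members and 1 and 2 of the class II members did (1 and 7 of class II without DOX replicate 1). Class I had a median log2 fold change of 0.09 in CAL27 and 0.04 in HSC3 cells, and class II had -0.0047 and 0.09. The 12 cytosolic synthetases commonly listed as ATF4-responsive, WARS1 aside, had 4 falls and 1 rise in CAL27 cells (median -0.06) and 2 falls and 3 rises in HSC3 cells (median 0.03). The other 7 cytosolic members had 1 fall and 5 rises in CAL27 cells (median 0.25) and no fall and 2 rises in HSC3 cells (median 0.15, with 4 rises without DOX replicate 1). The called shares in CAL27 cells were 76.5% (class I), 41.2% (class II), 41.7% (ATF4-responsive) and 85.7% (the other 7), beside 44.5% of all genes. In HSC3 cells they were 41.2%, 17.6%, 41.7% and 28.6%, beside 28.4% of all genes. Of the 8 genes whose ATF4 elements are shown above, AARS1, CARS1 and MARS1 fell and YARS2 rose in CAL27 cells, and IARS1 fell in HSC3 cells.

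The integrated stress response was measured with 20 genes that include ATF4, its partners and its targets. In CAL27 cells 10 fell and 2 rose, with a median log2 fold change of -0.17, and in HSC3 cells 12 fell and none rose, with a median of -0.38. Called were 60% of the 20 in each line, beside 44.5% of all genes in CAL27 and 28.4% in HSC3 cells. ATF4 itself was near the threshold in CAL27 cells (-0.22, edgeR adjusted p = 0.0496) and had 0.06 in HSC3 cells (edgeR adjusted p = 0.61). The largest falls in CAL27 cells were in VLDLR, a lipoprotein receptor (-1.12, edgeR adjusted p = 9.8e-11), PHGDH, the first enzyme of serine synthesis (-0.86, edgeR adjusted p = 6.4e-12), and DDIT4, an inhibitor of mTORC1 (-0.66, edgeR adjusted p = 0.02). In HSC3 cells they were in VLDLR (-1.13, edgeR adjusted p = 2.1e-05), DDIT3, a transcription factor of the stress response (-0.88, edgeR adjusted p = 0.006), and TRIB3, a pseudokinase (-0.78, edgeR adjusted p = 3.5e-05). The 12 ATF4-responsive synthetases had log2 fold changes between -0.41 and 0.38 over both lines, with CARS1 at the lower and LARS1 at the upper end.

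Interferon reference genes were measured because WARS1 is induced by interferon-γ. All 7 (IRF1, GBP1, GBP2, IDO1, PSMB9, TAP1 and CXCL10) fell in CAL27 cells, with a median log2 fold change of -1.31. In HSC3 cells 2 of the 6 tested fell and 1 rose (PSMB9, a subunit of the immunoproteasome, 0.44, edgeR adjusted p = 0.043), with a median of 0.03. Called were 100% of those tested in CAL27 and 50% in HSC3 cells, beside 44.5% and 28.4% of all genes. The list holds no OAS, MX or IFIT gene, and the study reported such interferon-stimulated genes as suppressed in both lines. The list thus does not stand for the interferon genes as a whole. IRF1 fell in CAL27 cells (-0.72, edgeR adjusted p = 3.6e-06), and in HSC3 cells it had 20.4, 17.7 and 17.1 CPM with vehicle and 16.4, 25.2 and 23.9 CPM with DOX (0.24, edgeR adjusted p = 0.28). Without DOX replicate 1, IRF1 (0.41, edgeR adjusted p = 0.0014) and TAP1, a peptide transporter subunit (0.30, edgeR adjusted p = 0.012), were called higher in HSC3 cells too, so 2 fell and 3 rose. GBP1, an interferon-induced GTPase, fell by 1.31 in CAL27 cells and by 0.38 in HSC3 cells on the log2 scale (edgeR adjusted p = 2.5e-10 and 0.019). CXCL10, a chemokine, fell from 1320 to 1932 counts to 68 to 188 in CAL27 cells and from 72 to 124 counts to 0 to 18 in HSC3 cells. Its log2 fold changes were -3.57 and -4.13 (edgeR adjusted p = 8.6e-04 and 0.0054). GBP2, another GTPase of the family, fell in CAL27 cells (-1.54, edgeR adjusted p = 0.0015) and had -0.19 in HSC3 cells (edgeR adjusted p = 0.69). The effect of DOX differed between the lines for 5 of the 7, all with the higher log2 fold change in HSC3 cells. They were GBP2, IRF1, GBP1, PSMB9 and TAP1, by 1.36, 0.96, 0.94, 0.83 and 0.80 on the log2 scale (edgeR adjusted p = 6e-04, 0.0014, 4.3e-05, 0.0014 and 2.7e-04). These are 71.4% of the 7, beside 20.6% of all genes in that fit (8.25% higher).

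Genes of tryptophan transport and breakdown were measured beside WARS1. Of the 12 genes listed, 8 were tested in CAL27 cells, where 6 fell and none rose, and 7 were tested in HSC3 cells, where KYAT3 alone fell. Called were 75% of those tested in CAL27 and 14.3% in HSC3 cells, beside 44.5% and 28.4% of all genes. IDO1, which starts the breakdown of tryptophan, went from 643, 538 and 567 counts in the vehicle libraries to 201, 115 and 147 in the DOX libraries of CAL27 cells (log2 fold change -1.79, edgeR adjusted p = 7.1e-08). In HSC3 cells IDO1 had 4, 6 and 0 counts with vehicle and none with DOX, and was not tested. KYNU and KMO, later enzymes of the same pathway, fell in CAL27 cells (-0.76 and -0.74, edgeR adjusted p = 7.5e-07 and 4.9e-07) and had 0.06 and 0.14 in HSC3 cells (edgeR adjusted p = 0.59 and 0.75). KYAT3, a kynurenine aminotransferase, had -0.32 and -0.47 (edgeR adjusted p = 1.3e-04 and 0.0047). IDO1 is also among the interferon genes, and the tryptophan transporter subunits SLC7A5 and SLC3A2 are also among those of the stress response.

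**Figure D4:**
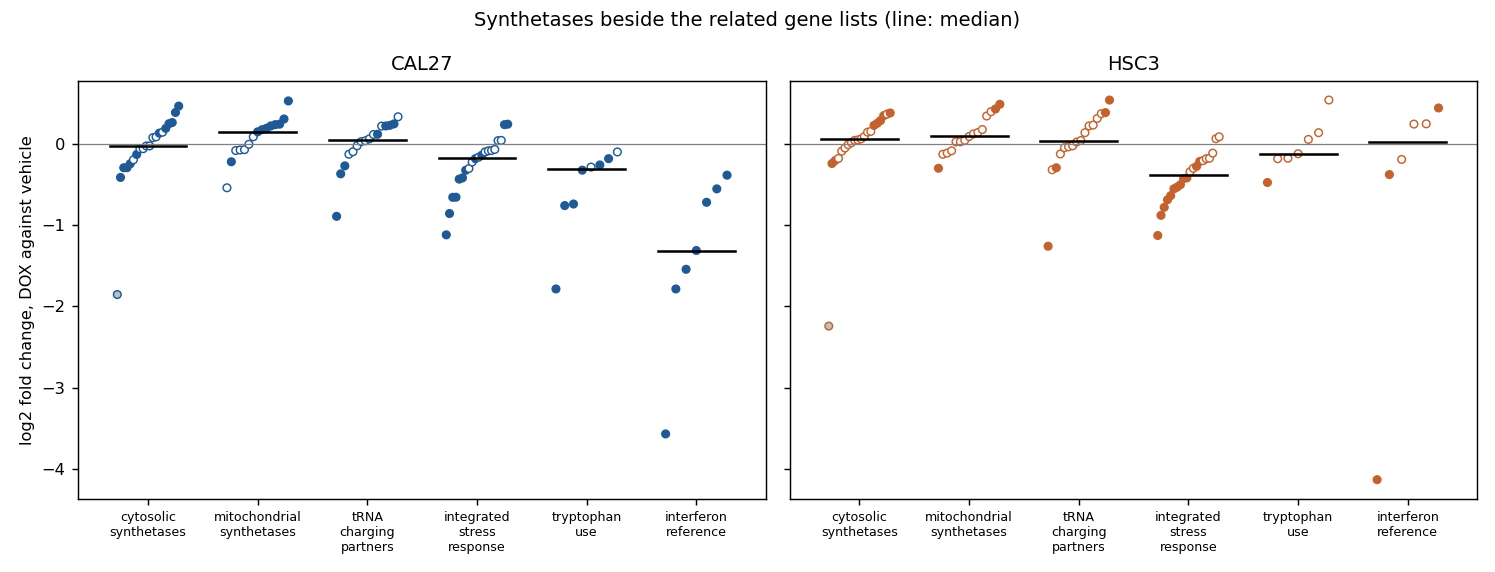
Log2 fold change of DOX against vehicle (vertical axis) for the tested genes of each list in CAL27 and HSC3 cells, with filled points for genes that passed the test, open points for those that did not, WARS1 in grey and the list's median as a line. In each line WARS1 lies below all other synthetases, and the stress response genes have a median of -0.17 in CAL27 and -0.38 in HSC3 cells.

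Vehicle-treated cells of the 2 lines also differed in the synthetases, although line and count table cannot be told apart. Of the 34 members other than WARS1, 18 were higher in HSC3 and 9 higher in CAL27 cells (edgeR adjusted p under 0.05 in the fit of 12 libraries). Of all genes, 32.3% were lower and 30.6% higher in HSC3 cells, 62.9% in all, with a median log2 difference of -0.12, beside 0.24 for the 34 members. The cytosolic members had a median of 0.54, with 12 of 19 higher in HSC3 cells, and the mitochondrial members one of -0.04, with 6 higher and 5 lower. With library totals in place of TMM, 16 members were higher and 13 lower, and the median over all genes moved from -0.12 to -0.39, so a member's difference is best read against that median.

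The largest differences toward HSC3 cells were in SARS1 (1.48), YARS2 (1.24), TARS1 (1.22), CARS1 (1.16) and MARS1 (1.03), with edgeR adjusted p of 5.3e-11 to 3.6e-09. Toward CAL27 cells they were in AARS2, the mitochondrial alanyl enzyme (-2.07, edgeR adjusted p = 2.5e-09), FARSA (-1.16, edgeR adjusted p = 6.5e-08), NARS1 (-0.73, edgeR adjusted p = 1.5e-06) and NARS2 (-0.68, edgeR adjusted p = 6.8e-07). AARS2 had 24.6 to 25.0 CPM in CAL27 and 4.48 to 5.41 CPM in HSC3 cells with vehicle, each scaled within its line. The ATF4-responsive members were among those higher in HSC3 cells, at 10 of 12 with a median of 0.81, and so were 18 of the 20 stress response genes, with a median of 1.03. The 7 interferon reference genes were all lower in HSC3 cells, with a median of -2.32. WARS1 was at 2.24 times its CAL27 level in HSC3 cells with vehicle, while GBP1 was at 0.2 times.

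The 36 synthetases together made up 0.464% to 0.47% of the counts with vehicle and 0.425% to 0.46% with DOX in CAL27 cells, and 0.589% to 0.621% and 0.561% to 0.592% in HSC3 cells. The summed level of the 19 cytosolic members other than WARS1 was 3834 to 3913 CPM with vehicle and 3651 to 3965 with DOX in CAL27 cells, and 4838 to 5202 and 5137 to 5232 in HSC3 cells, with overlapping groups in both lines. The mitochondrial members summed to 520.1 to 525 CPM with vehicle and 559 to 590.5 with DOX in CAL27 cells, and to 504 to 508 and 516 to 545 in HSC3 cells, and the groups did not overlap in either line. In HSC3 cells the gap was narrow (508.3 against 516.4 CPM), and 12 of the 15 mitochondrial members tested did not pass the test there.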

How the data were processed

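RNA was extracted with TRIzol from cells cultured in triplicate and made into TruSeq Stranded mRNA libraries. The deposited tables, 1 per cell line, hold raw counts that the authors made per gene symbol without normalization. The submitters' processing notes name FastQC 0.11.9, STAR 2.7.9a, Subread 2.0.1 with featureCounts, and GRCh38. The strand setting, treatment of duplicates and annotation are not given in the sources used here. Odd values made up 22.1% to 35.7% of counts from 1 to 19, so counts are not independent molecules and any precision read from depth covers counting error only. Replicates shared the same count on 0.535% to 1.93% of genes, and none were taken as the same library. P-values measure the spread between these cultures. In CAL27 cells the DOX columns carry the numbers 4 to 6 and were mapped to the group alone. Same-numbered vehicle libraries of the 2 lines had weak positive correlations of their deviations from the group means (0.101, 0.138 and 0.19 over genes). The reported vehicle comparison did not use the numbers as pairs, and a block for the number was fitted as an alternative only. The labels do not say what a number marks.

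Each line was fitted with edgeR 4.0.16 in R 4.3.3 (TMM, filterByExpr with a count minimum of 10 and total minimum of 15, robust glmQLFit, two-sided glmQLFTest), and p-values were adjusted by Benjamini-Hochberg across every gene tested. The standard error is the log2 fold change divided by the square root of F. The interaction and the vehicle comparison came from 1 fit of 12 libraries. An exact permutation test of 3 against 3 libraries cannot go below p = 0.1. The fits were tested on simulated counts. Levels per kilobase use the Ensembl canonical transcript of GENCODE v44. Alternatives were DESeq2 1.42.0, its size factors, library totals, no filter, a fold change above 2, 1 fit for both lines, a block for the replicate number, a fit of the vehicle libraries alone with and without that block (added after seeing the data), and the fits without each library in turn.

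Of 38 members found by the rule 2 are not reported here, nor are some genes of the other lists, and all counts leave them out. The members and the gene lists were chosen with earlier results of these data known. Named genes were the tryptophanyl pair, MUC1, the 4 members with the largest called change in each direction of each line, those called alike in both lines or with a called difference between lines and opposite signs, those not tested, the 3 largest called changes of each related list, and IRF1, GBP1, IDO1 and ATF4. AIMP1, EEF1E1 and the genes named from the vehicle comparison were chosen after their values were seen.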

Additional observations from a re-analysis of the deposited data

Results flagged for a closer look

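For 7 members the effect of DOX differed between the lines by the interaction term of the fit of all 12 libraries (edgeR quasi-likelihood, adjusted over all genes). They are 20.6% of the 34 members other than WARS1 that were tested, the same share as the 20.6% of all genes. Values are the log2 fold change in HSC3 minus that in CAL27 cells. It was -0.316 for IARS1 (adjusted p = 0.0025), which fell in HSC3 cells only by the test within each line. For CARS2 it was -0.333 (adjusted p = 0.01) and for FARSB -0.21 (adjusted p = 0.044), with rises in CAL27 cells of 0.22 and 0.47. It was 0.407 for YARS1 (adjusted p = 0.0036), 0.36 for EPRS1 (adjusted p = 0.0024), 0.25 for LARS1 (adjusted p = 0.03) and 0.48 for PARS2 (adjusted p = 0.045). The edgeR calls of IARS1, CARS2, YARS1 and EPRS1 held under all 16 alternatives, that of LARS1 under 12, that of PARS2 under 5 and that of FARSB under 3.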

How the results depend on the processing

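Requiring a fold change above 2 left 0 called members in CAL27 cells (0 lower and 0 higher, with 20 at the adjusted p alone) and 0 in HSC3 cells (0 lower and 0 higher, with 10). DESeq2 called the interaction higher for 7 members. Library totals turned AARS1 (-0.0203) and LARS2 (-0.0491) in the comparison of vehicle groups. In 1 fit of 12 libraries 4 CAL27 members fell and 10 rose, and 4 HSC3 members fell and 10 rose. Leaving out 1 library gave 18 to 23 calls in CAL27 cells (6 to 7 lower, 12 to 16 higher), 5 to 15 in HSC3 cells (1 to 3 lower, 4 to 12 higher), 4 to 13 for the interaction (2 to 3 lower, 2 to 10 higher) and 26 to 29 between vehicle groups (8 to 10 lower, 17 to 19 higher). The median of cytosolic members then ran from -0.0541 to 0.00484 in CAL27 and 0.043 to 0.124 in HSC3 cells (0.111 without HSC3 DOX replicate 3), and that of mitochondrial members from 0.123 to 0.164 and 0.0813 to 0.144. SARS2 turned in HSC3 cells to 0.0126 without vehicle replicate 1 and 0.388 without DOX replicate 3, and its interaction to -0.158 without HSC3 DOX replicate 1. The interaction of WARS2 was 0.000678 without HSC3 DOX replicate 3. The cause was not tested, beyond the smaller number of libraries.

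With the replicate number as a block, HSC3 cells again gave 3 lower and 7 higher members, 10 in all, with medians of 0.06 for cytosolic and 0.0917 for mitochondrial members. Same-numbered HSC3 libraries had correlations of -0.203, 0.348 and -0.346 of their deviations from the group means. With 3 libraries per group and DOX replicate 1 standing apart, these values cannot decide whether the numbers mark pairs. In CAL27 cells and the interaction, no paired analysis was possible because the CAL27 DOX columns carry no replicate number. A fit of the 6 vehicle libraries alone, chosen after seeing the data, called 19 members higher and 9 lower in HSC3 cells, 28 in all, both with the replicate number as a block and without it. VARS1 gained a call in both, and the block changed no other call of a member. Depth limits VARS2 and SARS2, which had few counts.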

Other observations

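Within 200 kb of WARS1, WDR25, which overlaps it on the opposite strand, had -0.16 and 0.26 (edgeR adjusted p = 0.21 and 0.29), YY1 had 0.02 and 0.17 (edgeR adjusted p = 0.79 and 0.071), and SLC25A29 fell by 0.32 in CAL27 cells (edgeR adjusted p = 0.0046) and had -0.19 in HSC3 cells (edgeR adjusted p = 0.38). Without HSC3 DOX replicate 1, WDR25 (0.39, edgeR adjusted p = 0.025) and EVL (0.42, edgeR adjusted p = 0.017) were called higher in HSC3 cells. EVL had 0.08 and 0.29 (edgeR adjusted p = 0.43 and 0.23), BEGAIN had 0.25 and -0.19 (edgeR adjusted p = 0.52 and 0.76), and DEGS2, a sphingolipid desaturase with at most 34 counts in a library, had -1.30 in CAL27 cells (edgeR adjusted p = 0.043) and 0.26 in HSC3 cells (edgeR adjusted p = 0.91).

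Of 16 listed partners of tRNA charging, 3 fell and 4 rose in CAL27 cells (median log2 fold change 0.05), and 2 fell and 2 rose in HSC3 cells (0.03). These are 43.8% and 25% of the list, near the 44.5% and 28.4% of all genes tested. In HSC3 cells without DOX replicate 1, 3 fell and 3 rose. After AIMP2, the largest called changes within a line were a fall of SEPSECS, which makes selenocysteinyl-tRNA (-0.37, edgeR adjusted p = 0.0016), and of the elongation factor EEF1A1 (-0.27, edgeR adjusted p = 1.7e-04), both in CAL27 cells, and a rise of PPA1, a pyrophosphatase (0.54, edgeR adjusted p = 7.4e-05), and of GATB, a subunit of the mitochondrial glutaminyl-tRNA amidotransferase (0.39, edgeR adjusted p = 0.014), in HSC3 cells. PPA2, a mitochondrial pyrophosphatase, was the other that fell in HSC3 cells (-0.29, edgeR adjusted p = 0.027).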
